A study of Mus musculus with 9 samples.

Results

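Hepatocytes given extracellular vesicles of aged osteocytes were compared with hepatocytes given vehicle, whichever of 2 antagomirs the vesicles had met beforehand. The comparison used all 9 libraries of the series: 3 of the vehicle group, called Veh, and 6 of the 2 vesicle groups, each vesicle group taken with equal weight. Of the 21959 genes listed, 11562 had enough counts to be tested. A gene was called at an adjusted p under 0.05 in edgeR's quasi-likelihood test of the mean of both vesicle groups against Veh, and it was described here if its fold change also had the same sign in each vesicle group. This gave 149 genes, 1.29% of those tested: 56 were higher (0.484%) and 93 were lower (0.804%) in the cells given vesicles. With library size alone as the scaling the split was 66 higher and 69 lower. Another 14 called genes had opposite signs in the 2 vesicle groups, so that 163 genes, 1.41%, were called in all.

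The cells were AML12, a mouse hepatocyte line derived from a mouse with a transforming growth factor alpha transgene, and all 9 libraries came from cells under a free fatty acid load (FFA). Veh received phosphate-buffered saline (PBS). EV_antaNC received vesicles of aged osteocytes (OCY-EV) that had been kept for 30 min with antagomir-NC, a control oligonucleotide, and EV_anta483 received the same vesicles kept for the same time with antagomir-483-5p, an oligonucleotide complementary to miR-483-5p. The dose in both vesicle groups was 2 µg/ml, total RNA was sequenced, and each group had 3 libraries. How the vesicles were recovered after the incubation is given inconsistently, as ultracentrifugation in the protocol and as ultrafiltration in the titles. No library came from cells given vesicles without an antagomir or an antagomir without vesicles, so effects of the vesicles and effects that both antagomirs share cannot be told apart. AML12 is a single line, and the labels do not say if libraries of one group are separate cultures. The p-values therefore measure only how much these libraries vary, and that variation may be technical.

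Extracellular vesicles are membrane-bound particles that carry proteins, lipids and small RNAs between cells, and osteocytes, the cells embedded in bone matrix, release them. Recipient cells bind vesicles through integrins and other surface proteins and take them up largely by endocytosis. Hepatocytes under a fatty acid load store triglyceride in lipid droplets and oxidise part of it in mitochondria and peroxisomes, and hepatocyte lines, unlike the resting liver, pass through the cell cycle in culture. The antagomir in EV_anta483 is directed at the microRNA below, shown because it is the only designed difference between the vesicle groups. It is the mature mouse sequence from RefSeq (GRCm38.p6, chr7:142654968-142654989, minus strand), with its seed, bases 2 to 8, in capitals.
mmu-miR-483-5p: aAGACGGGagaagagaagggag

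The libraries held 17298814 to 21737643 counts each, and mitochondrial transcripts took 3.77% to 4.07% of them. Hnf4a, a transcription factor of hepatocytes, was present at 48.3 to 67.1 CPM (the count scaled by the total of its library to a common depth) and the keratin gene Krt8 at 1765 to 1937 CPM. Alb, which encodes serum albumin, reached only 1.71 to 7.28 CPM, Cyp2e1 had at most 1 count, and Cyp3a11 and Serpina1a were at 0, while Krt19, a keratin of bile duct cells, stood at 2357 to 2839 CPM, so several defining markers of the mature hepatocyte were absent. Of 15 osteocyte and osteoblast markers, 5 were at 0 in every library, among them Sost and Dmp1, and 2 had enough counts to be tested. The summed CPM of those 15 markers was 238 to 256 in Veh, 249.6 to 280.1 in EV_antaNC and 241 to 244 in EV_anta483. Nearly all of it came from Spp1 (146 to 186 CPM) and Runx2 (89.3 to 105.9 CPM), both present in Veh. Spp1 is also a marker of bile duct cells, so the sum does not show osteocyte RNA.

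The 3 libraries numbered 1 stood apart from the other 6. On the second principal component, with 17.2% of the variance, they lay at 10.4, 13.0 and 13.4 and the others between -10.8 and -3.07, and every group had 1 of them. The first component, with 21.9%, set EV_anta483 (13.5 to 14.8) against the other 2 groups (-10.8 to -4.13). Without the 3 libraries numbered 1, 394 genes were called in place of 163, and 127 of the 149 genes were still called with the same sign. The single libraries that mattered most were Veh 2, without which 42 genes were called, and Veh 3, without which 44 were called. Of the 149 genes, 39 were still called with equal sign in both vesicle groups without Veh 2 and 35 without Veh 3, and 21 were so whichever single library was left out. The sign of the pooled difference of all 149 was the same under every setting tried, which does not hold for the sign in each vesicle group where one of them is near 0, as for Cp.

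The changes were small. Among the 56 higher genes the fold over Veh ran from 1.07 to 1.79 with a median of 1.16, and among the 93 lower genes Veh exceeded the vesicle groups by 1.07-fold to 1.48-fold with a median of 1.12. Of the 149 genes, only 2 changed by 1.5-fold or more and 30 by 1.2-fold or more. Over all genes tested these counts were 139 and 782. The median log2 difference over all 11562 genes was -0.00. The genes nearest to the threshold were Gsto1 (-0.12, adjusted p = 0.0491) and Scd3 (0.20, adjusted p = 0.0491) inside it, and Ikbkg (0.13, adjusted p = 0.0508) and Prodh (-0.27, adjusted p = 0.0513) outside it, all by edgeR's quasi-likelihood test.

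The 2 vesicle groups contributed unequally. Set against the same Veh libraries, 170 genes (1.47%) were called in EV_antaNC, 124 higher (1.07%) and 46 lower (0.398%), and 884 (7.65%) in EV_anta483, 417 higher (3.61%) and 467 lower (4.04%), while 1806 (15.6%) were called between the vesicle groups. Among the 149 genes, the change was larger in EV_anta483 for 120, beside 6432 of the 11562 genes tested. These 120 were 31 of the 56 higher and 89 of the 93 lower genes. For 82 of the 149, 22 higher and 60 lower, the vesicle groups also differed from each other. For 67, 34 higher and 33 lower, no difference between the vesicle groups was called. The median log2 difference of the 56 higher genes was 0.21 in EV_antaNC and 0.24 in EV_anta483, and that of the 93 lower genes was -0.09 and -0.26. The 2 medians were close for the higher genes, whereas for the lower genes that of EV_anta483 was the larger by far. Because both comparisons use the same 3 Veh libraries, the equal sign is a description and not a test.

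**Figure D1:**
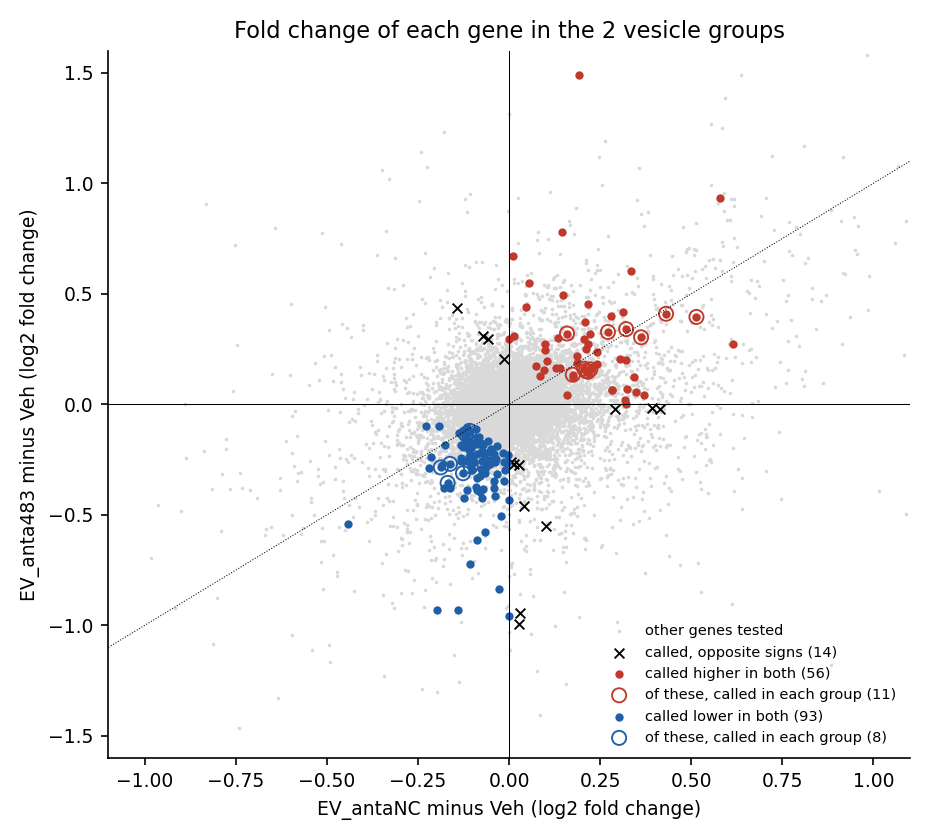
Log2 difference from Veh in EV_antaNC (horizontal axis) and in EV_anta483 (vertical axis) for each tested gene, with the called genes of equal sign coloured by direction and those called in each group marked. The 93 lower genes lie mostly below the dotted line of equal change, with medians of -0.09 and -0.26, while the 56 higher genes lie on both sides of it, with medians of 0.21 and 0.24. The axes end at 1.1 and 1.6, and 23 genes lie beyond them.

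By the stricter reading, 19 genes (0.164%) were called in EV_antaNC and in EV_anta483 separately with the same sign. The 11 that rose were the mitosis genes Knl1, Spdl1, Ckap2 and Cenpe, the RNA-binding or spliceosomal genes Snrnp48 and Taf15, the chromatin genes Tet2 and Brd8, and Gpr137b, Ccdc77 and G2e3. The 8 that fell included Lrig1, Tpst2, Aldh2, Tmem176b, Tgm2, Tns1 and Ergic1. All 19 had their 6 vesicle libraries on one side of their 3 Veh libraries, which 226 genes (1.95%) did above Veh and 216 (1.87%) below it among all those tested. The split of 11 higher and 8 lower depends on the scaling: with relative log expression size factors it was 12 and 3, and with library size alone 13 and 0. Leaving out Veh 3 reduced the 19 genes to 1, and leaving out Veh 2 reduced them to 4.

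**Figure D2:**
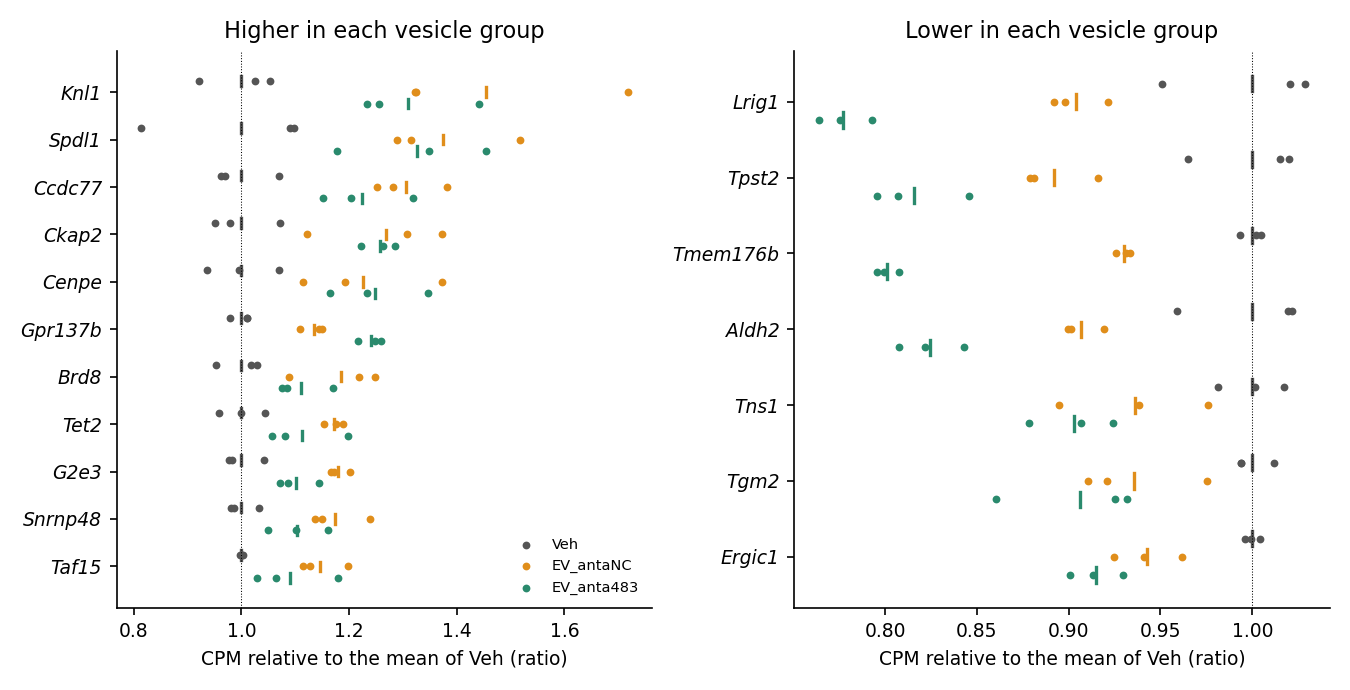
CPM in each of the 9 libraries, divided by the Veh mean, for 18 of the genes called in each vesicle group, with Veh, EV_antaNC and EV_anta483 as points of different colour and bars at the group means (n = 3 each). All vesicle points of the 11 higher genes lie above, and all those of the 7 lower genes shown lie below, every Veh point of the same gene.

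Genes of mitosis formed the largest functional group among the higher genes. Of the 149 genes, 15 act in mitosis or chromosome segregation, and all 15 were higher, by 0.17 to 0.45 on the log2 scale. This group and the other functional groups below were formed after the values were seen and carry no test as groups. The median over the 15 was 0.27 in EV_antaNC and 0.33 in EV_anta483. A difference between the vesicle groups was called for only 2 of them, Smc4 and Cip2a. In 10 of the 15 all vesicle libraries were above Veh, beside 35 of the 56 higher genes and 226 (1.95%) of all genes tested. Lack of overlap with Veh was also a condition of a rule by which many genes below were named. It is therefore a description and no separate support for those genes.

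Knl1, the kinetochore scaffold that recruits the spindle checkpoint kinase, read 17.1, 16.7 and 14.97 CPM in Veh, 27.9, 21.5 and 21.5 in EV_antaNC, and 23.4, 20.4 and 20.0 in EV_anta483. All 6 vesicle libraries were above all 3 Veh libraries, and the highest was EV_antaNC 1. The means were 16.2 ± 1.13, 23.6 ± 3.703 and 21.3 ± 1.86 CPM (SD, n = 3 each). The pooled log2 difference was 0.45 (SE 0.08, adjusted p = 0.00274 by edgeR), with 0.51 in EV_antaNC and 0.40 in EV_anta483, and the adjusted p was 0.0552 without Veh 3. Spdl1, which brings dynein to kinetochores, stood at 10.4, 10.4 and 7.74 CPM in Veh against 12.3, 12.5 and 14.5 in EV_antaNC and 13.8, 11.2 and 12.8 in EV_anta483. No vesicle library overlapped Veh, but the lowest one, at 11.2, was close to the Veh libraries at 10.4. The difference was 0.42 (SE 0.10, adjusted p = 0.0246 by edgeR). The call was lost without any one of Veh 2, Veh 3, EV_antaNC 3 and EV_anta483 3, at adjusted p of 0.0516 to 0.285.

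Ckap2, a spindle microtubule protein, read 45.9, 40.7 and 41.9 CPM in Veh, 58.8, 48.1 and 56.0 in EV_antaNC and 54.1, 52.4 and 55.1 in EV_anta483. The groups did not overlap, and the means of 54.3 ± 5.58 and 53.9 ± 1.37 CPM in the vesicle groups were nearly equal beside 42.8 ± 2.71 in Veh (SD, n = 3 each). The difference was 0.33 (SE 0.06, adjusted p = 0.000708 by edgeR), and Ckap2 was the mitosis gene whose call held without each single library in turn. Cenpe, the kinetochore motor that moves chromosomes to the spindle equator, read 44.4, 41.4 and 38.9 CPM in Veh, 57.0, 46.3 and 49.5 in EV_antaNC and 55.9, 48.4 and 51.2 in EV_anta483. In every group its library numbered 1 was the highest. The difference was 0.30 (SE 0.06, adjusted p = 0.00945 by edgeR), and the adjusted p rose to 0.103 without Veh 2 and 0.117 without Veh 3.

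Kif20a, a kinesin of the central spindle, rose from 20.0, 18.8 and 16.8 CPM in Veh to 26.5, 22.6 and 21.2 in EV_antaNC and 27.2, 23.9 and 23.0 in EV_anta483. Its difference was 0.37 (adjusted p = 0.00871 by edgeR, but 0.0723 without Veh 2 and 0.134 without Veh 3), and exons of a gene on the opposite strand cover 29.3% of its transcript, so its counts are uncertain if strand was not used in counting. Ube2c, the ubiquitin-conjugating partner of the anaphase-promoting complex, read 32.5, 32.4 and 26.6 CPM in Veh, 38.6, 35.6 and 33.6 in EV_antaNC and 42.7, 36.8 and 38.4 in EV_anta483. These libraries did not overlap either, and the difference of 0.29 (adjusted p = 0.0181 by edgeR) was lost without Veh 3, at 0.238. Opposite-strand exons cover 22.8% of the Ube2c transcript, so the same uncertainty holds for its counts. Hmmr, which organises spindle poles, rose by 0.24 (adjusted p = 0.02 by edgeR, but 0.116 without Veh 2 and 0.24 without Veh 3), from 36.6 ± 2.45 CPM in Veh to 43.2 ± 4.03 and 44.0 ± 2.00 (SD, n = 3 each). The S-phase and mitotic cyclin gene Ccna2 (0.27), the spindle protein gene Nusap1 (0.25), the centromeric histone chaperone gene Hjurp (0.22), the spindle gene Tacc3 (0.20) and the condensin genes Ncaph (0.34) and Smc4 (0.17) were also called higher. Smc4 lost its call without Veh 3 (adjusted p 0.126), and the other 5 kept theirs with equal sign in only 2 to 6 of the 9 fits that leave out 1 library.

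The wider set of cell cycle genes mostly did not pass the test. A list of 34 tested genes of the cell cycle and mitosis held 6 that were called, all higher (Ube2c, Kif20a, Knl1, Ccna2, Smc4 and Cenpe), and none lower. Of all genes tested, 56 (0.484%) were called higher with equal sign. The log2 difference was above 0 in 32 of the 34, beside 5649 of the 11562 genes tested, and its median was 0.20, with 0.21 in EV_antaNC and 0.24 in EV_anta483. Among those not called were Cdk1, the mitotic kinase (0.19, adjusted p = 0.0612), Top2a, a topoisomerase (0.25, 0.396), the proliferation marker Mki67 (0.21, 0.401) and the mitotic cyclin gene Ccnb1 (0.19, 0.505). Plk1, a mitotic kinase, was at 0.01, and Ccnd1, the cyclin of the G1 phase, was at -0.11 (adjusted p = 0.0694). In a separate list of 31 tested genes of DNA replication none was called and the median was 0.07.

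The libraries numbered 1 moved with this list. Its summed CPM was 1751, 1649 and 1564 in Veh, 2075, 1749 and 1823 in EV_antaNC and 1930, 1753 and 1792 in EV_anta483. The library numbered 1 was the highest of its group each time, and Veh 1 was just above EV_antaNC 2, so the summed levels overlapped. Divided by the Veh library of the same number, the sums of EV_antaNC were 1.185, 1.061 and 1.166 and those of EV_anta483 were 1.102, 1.063 and 1.146. Without the libraries numbered 1, 14 genes of the list were called higher and 1 lower, and the median was 0.19. Without Veh 3 no gene of the list was called, with a median of 0.17, and without Veh 2 there were 3. Limma on log2(FPKM + 1) called none. Whether the spread between libraries numbered alike has a part in these differences was not tested.

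**Figure D3:**
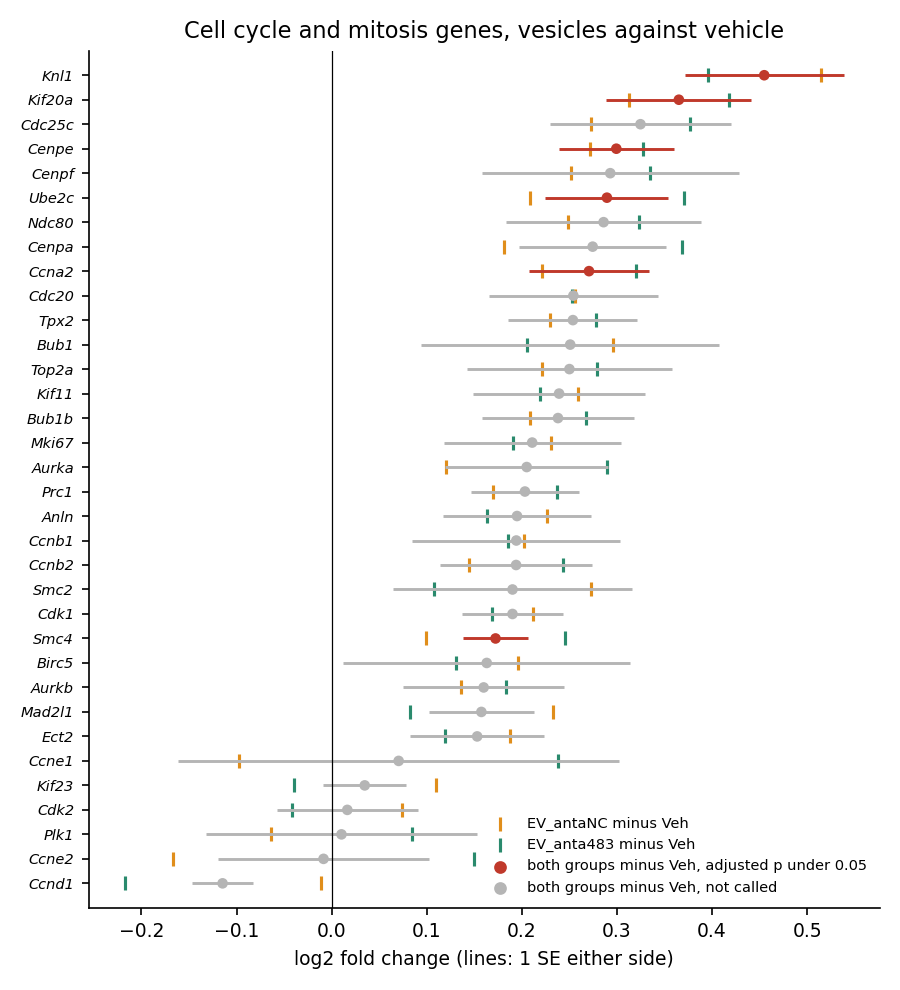
Log2 difference between both vesicle groups and Veh (dots, with lines of 1 SE either side, red where called) for each of the 34 tested genes of the cell cycle and mitosis list, with ticks for EV_antaNC and EV_anta483 alone. Most ticks of both groups lie to the right of 0, where the medians are 0.21 and 0.24, and 6 genes are called.

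The promoters of 4 of these genes are shown because the genes rose together and because cell cycle promoters are known for 2 short elements, the cell cycle genes homology region and the CCAAT box. The letters searched were TTTGAA and CCAAT, on both strands, in the 300 bases from 250 before to 50 after each gene start in RefSeq (GRCm38.p6). Matches are in capitals, as TTTGAA or TTCAAA and as CCAAT or ATTGG. In Ube2c a CCAAT and an opposite match overlap as CCAATTGG. Knl1 is at chr2:119046869-119047168 on the plus strand, Ckap2 at chr8:22185770-22186069 on the minus strand, Hmmr at chr11:40733388-40733687 on the minus strand and Ube2c at chr2:164769679-164769978 on the plus strand.
Knl1: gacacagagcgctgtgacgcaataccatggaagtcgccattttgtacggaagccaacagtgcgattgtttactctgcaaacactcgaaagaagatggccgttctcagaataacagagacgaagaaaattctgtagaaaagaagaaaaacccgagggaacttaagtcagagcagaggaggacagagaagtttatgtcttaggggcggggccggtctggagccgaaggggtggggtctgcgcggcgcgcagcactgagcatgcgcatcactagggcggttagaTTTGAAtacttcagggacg
Ckap2: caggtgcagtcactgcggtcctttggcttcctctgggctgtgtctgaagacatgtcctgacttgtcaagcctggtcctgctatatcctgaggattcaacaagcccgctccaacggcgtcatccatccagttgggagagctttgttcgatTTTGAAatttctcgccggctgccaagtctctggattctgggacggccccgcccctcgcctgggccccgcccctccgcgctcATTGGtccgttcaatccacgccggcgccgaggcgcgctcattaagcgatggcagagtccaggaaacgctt
Hmmr: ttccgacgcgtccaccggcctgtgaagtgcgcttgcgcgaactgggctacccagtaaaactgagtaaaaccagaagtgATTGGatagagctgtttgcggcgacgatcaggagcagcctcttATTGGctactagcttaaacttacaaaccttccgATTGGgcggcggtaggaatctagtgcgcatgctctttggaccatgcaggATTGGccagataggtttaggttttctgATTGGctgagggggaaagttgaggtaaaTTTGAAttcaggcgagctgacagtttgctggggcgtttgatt
Ube2c: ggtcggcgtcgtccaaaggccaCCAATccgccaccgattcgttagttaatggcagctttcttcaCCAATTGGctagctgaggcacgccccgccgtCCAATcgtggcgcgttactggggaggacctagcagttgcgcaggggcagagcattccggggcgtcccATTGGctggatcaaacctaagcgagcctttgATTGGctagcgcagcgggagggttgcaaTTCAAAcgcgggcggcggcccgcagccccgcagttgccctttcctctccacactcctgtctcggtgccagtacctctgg

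TTTGAA lay 32 bases downstream of the start of Knl1 and 9 downstream of that of Hmmr, and 101 bases upstream of the start of Ckap2 and, on the opposite strand, 29 upstream of that of Ube2c. Of the 11562 genes, 9121 had a RefSeq promoter, 11650 promoters in all, and 12.3% of these held TTTGAA. The share was 17.2% for the higher genes (10 of 58 promoters of 45 genes) and 9.62% for the lower ones (10 of 104 promoters of 76 genes). For the cell cycle and mitosis list it was 75.0% (21 of 28 promoters of 26 genes). CCAAT was held by 38.1% of all promoters, 46.6% of those of the higher genes, 34.6% of those of the lower genes and 78.6% of those of the list. A match describes the letters and says nothing of a factor bound there.

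Genes of RNA processing and chromatin formed the other higher groups. Of 9 genes of RNA processing, all higher by 0.10 to 0.20, the median was 0.21 in EV_antaNC and 0.07 in EV_anta483, and in 5 of them the vesicle groups differed. Hnrnpa1, which encodes an abundant ribonucleoprotein of pre-mRNA, read 1088, 1067 and 1081 CPM in Veh, 1178, 1151 and 1184 in EV_antaNC and 1213, 1169 and 1206 in EV_anta483. All vesicle libraries were above Veh by more than the range of Veh itself. The difference was 0.13 (SE 0.02, adjusted p = 0.00171 by edgeR), and it held without each single library.

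Snrnp48, a protein of the minor spliceosome, read 70.7, 71.2 and 74.5 CPM in Veh, 82.9, 82.0 and 89.4 in EV_antaNC and 75.7, 79.4 and 83.7 in EV_anta483, a difference of 0.18 (adjusted p = 0.0166 by edgeR). The lowest vesicle library was just above the highest of Veh, and the adjusted p was 0.105 without Veh 1, 0.158 without Veh 2 and 0.0514 without EV_anta483 3. Taf15, an RNA-binding protein of the FET family, stood at 231, 232 and 231 CPM in Veh, 258, 261 and 277 in EV_antaNC and 238, 246 and 273 in EV_anta483 (0.15, adjusted p = 0.0181 by edgeR), and its call held in 6 of the 9 fits without 1 library.

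By contrast, the rise of Luc7l2 and Tra2a, both regulators of splice site choice, lay in EV_antaNC. Luc7l2 stood at 234, 228 and 232 CPM in Veh, 285, 292 and 305 in EV_antaNC and 223, 238 and 264 in EV_anta483, where one library was below Veh. Its log2 difference was 0.32 in EV_antaNC and 0.07 in EV_anta483, that of Tra2a 0.28 and 0.06, that of Tial1, an RNA-binding protein, 0.32 and 0.02, and the vesicle groups differed in all of these. Leaving out Veh 2 or Veh 3 ended the pooled calls of Luc7l2 (adjusted p 0.108 and 0.0756) and Tra2a (0.159 and 0.0545). In a list of 30 tested SR proteins and splicing regulators 2 were called higher, beside 56 (0.484%) of all genes tested, and 27 were above 0. The median was 0.22 in EV_antaNC and -0.03 in EV_anta483, so that the pooled median of 0.09 described neither group.

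Of 6 genes of chromatin and the DNA damage response, all higher, Tet2, which oxidises 5-methylcytosine, read 121, 127 and 116 CPM in Veh, 140.3, 144 and 143 in EV_antaNC and 129, 131 and 146 in EV_anta483. The groups did not overlap. The difference was 0.18 (SE 0.04, adjusted p = 0.00845 by edgeR), and 0.141 was the adjusted p without Veh 3. Brd8, a bromodomain subunit of a histone acetyltransferase complex, rose by 0.19 (adjusted p = 0.0185 by edgeR), from 82.0 ± 3.45 CPM to 97.2 ± 6.97 in EV_antaNC and 91.0 ± 4.26 in EV_anta483 (each n = 3, ± SD), but missed the threshold without any one of 5 libraries (0.0508 to 0.144). Atr, the kinase that signals stalled replication, and Hltf, a helicase-like protein of replication forks, were higher in EV_antaNC (0.37 and 0.32) and at 0.04 and 0.00 in EV_anta483. Rif1, which protects broken DNA ends, was at 0.14 and 0.17.

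Among the other higher genes, Gpr137b, a lysosomal membrane protein, had one of the smallest adjusted p-values. Its CPM was 135, 135 and 131 in Veh, 153, 148 and 154 in EV_antaNC and 169, 163 and 167 in EV_anta483. The 3 groups did not overlap and stood in that order. The pooled difference was 0.24 (SE 0.03, adjusted p = 3.29e-05 by edgeR), it held without each single library, and the vesicle groups differed as well (0.16, adjusted p = 0.00277 by edgeR). Mgea5, the enzyme that removes O-GlcNAc from proteins, rose from 276 ± 8.83 CPM to 300.1 ± 12.2 and 332 ± 10.3 (SD, n = 3 each; 0.19, adjusted p = 0.000461 by edgeR).

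Braf, a kinase of the growth factor pathway to ERK, read 61.8, 61.1 and 58.2 CPM in Veh, 70.3, 66.7 and 72.1 in EV_antaNC and 71.4, 63.0 and 70.4 in EV_anta483 (0.19, adjusted p = 0.0246 by edgeR), but missed the threshold without any one of 5 libraries (0.0533 to 0.226). Per3, a period gene of the circadian clock, stood at 21.4, 25.7 and 24.4 CPM in Veh and between 27.3 and 29.0 in all 6 vesicle libraries (0.24, adjusted p = 0.039 by edgeR). The vesicle libraries were tightly grouped, and Veh 1 was the lowest of all. Without Veh 1 the adjusted p was 0.307, and the call was lost without any one of 7 libraries. Per3 was the only one of 16 tested clock genes that was called. G2e3, a ubiquitin ligase, rose from 135, 127 and 127 CPM to 152, 151 and 156 in EV_antaNC and 141, 139 and 148 in EV_anta483 (0.18, adjusted p = 0.00274 by edgeR, but 0.077 without Veh 2 and 0.0545 without Veh 3). The keratin gene Krt78, at 1.67 ± 0.274 CPM in Veh and 2.51 ± 0.258 and 3.15 ± 0.460 with vesicles (SD, n = 3 each), rose by 0.76 (adjusted p = 0.0439 by edgeR). It was called without only 1 of the 9 libraries in turn, at adjusted p of 0.0507 to 0.311 without the others. Prl2c3, at 0.84 the largest rise, belongs to a family of near-identical prolactin-like genes whose reads can be split in counting, and its level was 2.20 ± 0.335 CPM in Veh, 2.55 ± 0.413 in EV_antaNC and 6.16 ± 1.48 in EV_anta483 (each n = 3, ± SD).

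Among the lower genes, 3 that encode membrane or Golgi proteins fell in each vesicle group and held without each single library. The first, Lrig1, a transmembrane protein known to restrain the epidermal growth factor receptor, read 89.6, 97.0 and 96.2 CPM in Veh, 84.6, 86.9 and 84.1 in EV_antaNC and 74.7, 73.1 and 72.0 in EV_anta483. Each group was clear of the next. The pooled difference was -0.26 (SE 0.04, adjusted p = 6.61e-05 by edgeR), with -0.17 in EV_antaNC and -0.36 in EV_anta483, and the vesicle groups differed (adjusted p = 0.00341). Of 25 tested genes of signalling by that receptor, Lrig1 was the only one called lower and Braf the only one called higher.

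Tmem176b, an endosomal membrane protein, read 237, 236 and 234 CPM in Veh, 219, 218 and 219.9 in EV_antaNC and 187, 188 and 190.2 in EV_anta483, a narrow spread within each group and a step between groups. Its difference was -0.22 (SE 0.03, adjusted p = 1.5e-05 by edgeR). The neighbouring gene Tmem176a, whose location overlaps it on the other strand, was also called lower (-0.16, adjusted p = 0.0185 by edgeR), but its EV_antaNC libraries, at 133, 137 and 142 CPM, overlapped those of Veh, at 135, 145 and 141.

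Tpst2, which sulphates tyrosines of secreted proteins in the Golgi, fell from 62.2, 65.7 and 65.4 CPM to 56.8, 56.6 and 59.1 in EV_antaNC and 54.5, 51.3 and 52.0 in EV_anta483 (-0.24, SE 0.04, adjusted p = 0.00208 by edgeR). No libraries overlapped between vesicles and Veh, which a rule that named this gene required. Ergic1, a cargo protein of transport between the endoplasmic reticulum and the Golgi, read 544, 541 and 539 CPM in Veh and 488 to 520.4 in the vesicle libraries (-0.11, adjusted p = 0.0111 by edgeR, but 0.0675 to 0.0963 without any one Veh library).

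Of 7 lower genes of adhesion and the cytoskeleton, the focal adhesion protein gene Tns1 and the crosslinking enzyme gene Tgm2 fell alike in both groups. Tns1 read 647, 659.6 and 670.2 CPM in Veh, 589, 618 and 643 in EV_antaNC and 579, 597 and 609 in EV_anta483. The highest vesicle library was just below the lowest of Veh. The difference was -0.13 (SE 0.03, adjusted p = 0.0089 by edgeR), with -0.12 and -0.14 in the vesicle groups. Tgm2 went from 845 ± 8.75 CPM to 791 ± 29.5 and 766 ± 33.4 (SD, n = 3 each; -0.13, adjusted p = 0.01 by edgeR), and opposite-strand exons cover 21.8% of its transcript. The calls of both were lost without Veh 2 (adjusted p 0.0861 for Tns1 and 0.123 for Tgm2) or Veh 3 (0.14 and 0.0746).

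Enzymes of redox defence and detoxification made up 10 of the lower genes, by 0.11 to 0.41, with a median of -0.09 in EV_antaNC and -0.24 in EV_anta483. Aldh2, the mitochondrial enzyme that oxidises acetaldehyde and lipid aldehydes (chr5:121566027-121593824, minus strand), read 95.3, 89.4 and 95.1 CPM in Veh, 83.9, 84.1 and 85.8 in EV_antaNC and 75.3, 76.7 and 78.6 in EV_anta483. The 3 groups did not overlap. The difference was -0.22 (SE 0.04, adjusted p = 0.000897 by edgeR), with -0.16 and -0.27 in the vesicle groups, which were not called different from each other (adjusted p = 0.0927). Its cytosolic relative Aldh1a1 was at -0.11 and -0.21 (pooled -0.16, adjusted p = 0.00224 by edgeR).

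Prdx6, a peroxiredoxin that also reduces phospholipid hydroperoxides, read 359.5, 352 and 344 CPM in Veh, 329.9, 332 and 316 in EV_antaNC and 307, 301 and 278 in EV_anta483. All vesicle libraries were below Veh, and the difference was -0.19 (SE 0.03, adjusted p = 0.000461 by edgeR). Aldh2 and Prdx6 kept their calls without each single library. For Mgst1, a membrane glutathione transferase, the fall lay in EV_anta483 (-0.35, with -0.02 in EV_antaNC), and the pooled adjusted p was 0.189 without Veh 2. In a list of 34 tested genes of the NRF2 antioxidant response, 3 were called lower (Prdx6, Mgst1 and Gstm1) and none higher. Called lower among all genes tested were 93 (0.804%). Of the 34, 19 were below 0 and 15 above. The medians of the list were -0.04 in EV_antaNC and -0.00 in EV_anta483.

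Few mitochondrial genes passed the test. Cox4i1, a subunit of cytochrome c oxidase, read 165, 172 and 167 CPM in Veh, 160.0, 151 and 154 in EV_antaNC and 154, 151 and 152 in EV_anta483. No vesicle library reached the lowest of Veh. The difference was -0.13 (SE 0.03, adjusted p = 0.0246 by edgeR), -0.14 in EV_antaNC and -0.13 in EV_anta483, and the call was lost without any one of 6 libraries (0.0543 to 0.266). Among 43 tested nuclear genes of the respiratory chain it was the only one called, while 39 lay below 0, beside 5913 of the 11562 genes tested, with a median of -0.07 in EV_antaNC and -0.05 in EV_anta483.

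The summed CPM of that list was 5658, 5646 and 5546 in Veh, 5540, 5460 and 5412 in EV_antaNC and 5457, 5428 and 5362 in EV_anta483. All 6 vesicle sums were below the 3 Veh sums, with Veh 3 just above EV_antaNC 1. Divided by the Veh library of the same number, the sums lay between 0.9615 and 0.9792. All 12 tested protein genes of mitochondrial DNA were below 0, with a median of -0.07, and 1 was called, mt-Co2, whose levels of 204, 171 and 187 CPM in Veh overlapped the 155 to 172 of the vesicle libraries and whose call was lost without any one of 6 libraries (0.064 to 0.229). That median was -0.02 without Veh 2. Suclg1, of the tricarboxylic acid cycle, was lower in EV_antaNC (-0.19) and EV_anta483 (-0.10), and Glud1, which deaminates glutamate, mainly in EV_anta483 (-0.06 and -0.28). Of 23 tested genes of fatty acid oxidation and its regulator PPAR-alpha none was called and 22 were below 0, with a median of -0.04.

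**Figure D4:**
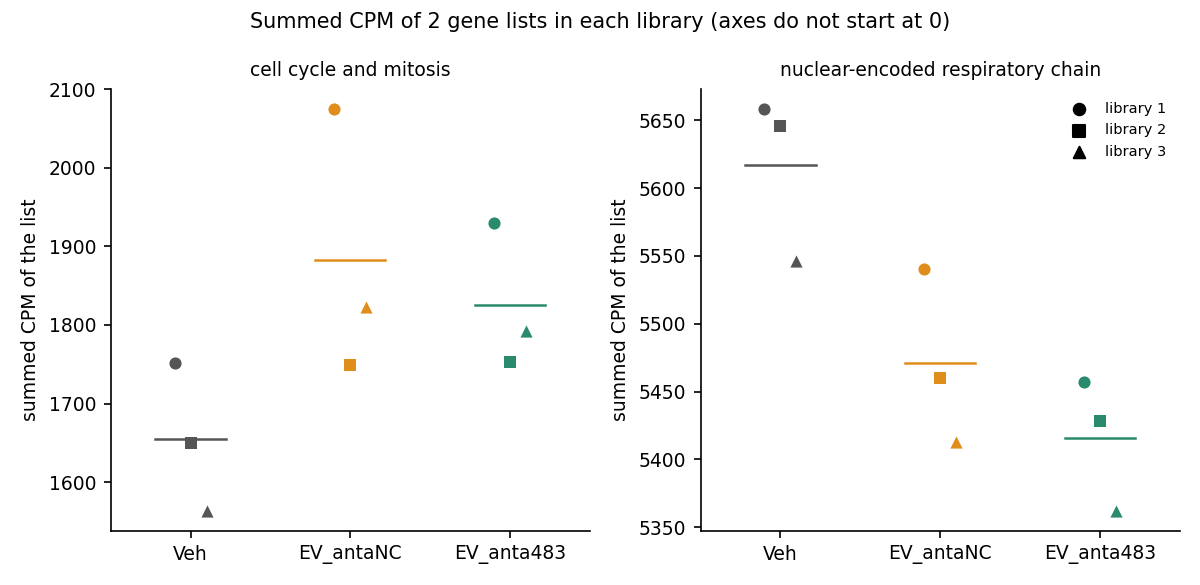
Summed CPM in each library of the cell cycle and mitosis list and of the nuclear-encoded respiratory chain list, by group, with the symbol giving the library number and the bar the group mean (n = 3). The axes do not start at 0. The cell cycle sums overlap between groups (Veh 1 at 1751 and EV_antaNC 2 at 1749), and all 6 vesicle sums of the respiratory chain list lie below the 3 Veh sums.

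Genes of lipid handling moved in both directions and mostly in 1 vesicle group. Of 9 such genes among the 149, 4 were higher and 5 lower, and none was called in each group. Plin2, the coat protein of lipid droplets in hepatocytes, read 217, 217 and 212 CPM in Veh, 211, 202 and 205 in EV_antaNC and 199.9, 188 and 179.6 in EV_anta483. The vesicle libraries lay below Veh throughout, though narrowly for EV_antaNC 1. The difference was -0.13 (SE 0.03, adjusted p = 0.0307 by edgeR), but the call was lost without any one of 7 libraries (0.0688 to 0.213). Pnpla2, the first lipase of triglyceride breakdown, read 69.6, 68.5 and 71.2 CPM in Veh, 66.0, 66.6 and 64.5 in EV_antaNC and 57.8, 59.9 and 58.9 in EV_anta483. These did not overlap, and the difference was -0.17 (SE 0.04, adjusted p = 0.0197 by edgeR), lost without any one of 4 libraries (0.0546 to 0.187).

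Fabp4, a fatty acid carrier best known from adipocytes and macrophages, rose in EV_anta483, at 54.5, 52.95 and 56.0 CPM, while EV_antaNC, at 40.2, 37.6 and 40.6, overlapped Veh, at 37.1, 37.7 and 37.5. The pooled difference of 0.30 (adjusted p = 0.000433 by edgeR) therefore came from a difference of 0.55 in one group and 0.05 in the other. The adipocyte markers Adipoq and Plin1 had at most 2 counts and 0 counts. Hmgcs1, of cholesterol synthesis, and Insig1, a brake on that pathway, were likewise at 0.00 and 0.01 in EV_antaNC and 0.29 and 0.31 in EV_anta483. Leaving out Veh 1 or Veh 2 ended the call of Insig1 (adjusted p 0.128 and 0.077), and leaving out any one of 5 libraries ended that of Hmgcs1 (0.0578 to 0.318). Scd3, a stearoyl-CoA desaturase, did the opposite, with 0.35 in EV_antaNC and 0.06 in EV_anta483. Cd36, a fatty acid transporter, was called in the pooled comparison (-0.48) but is not among the 149 genes, since it was at 0.03 in EV_antaNC and -0.99 in EV_anta483.

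Secreted and matrix proteins showed the same dependence on 1 group most clearly. This group of 11 was formed after the values were seen and leaves out the prolactin-like gene Prl2c3, which was higher (pooled 0.84). All 11 were lower, by 0.14 to 0.48. In 10 the vesicle groups differed, with medians of -0.09 in EV_antaNC and -0.39 in EV_anta483. Cp, the copper carrier ceruloplasmin, had the smallest adjusted p of all these (1.17e-10 by edgeR, pooled -0.48), yet its CPM was 332, 338 and 326 in Veh, 353, 347 and 313 in EV_antaNC and 177, 170.3 and 163 in EV_anta483. EV_antaNC enclosed the range of Veh, and the log2 differences were -0.00 and -0.96. Kcnj16, a potassium channel, had -0.03 and -0.83 in the same order.

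Igfbp7, which binds insulin-like growth factors, was intermediate, at 304, 310.3 and 310.0 CPM in Veh, 285, 290.1 and 291 in EV_antaNC and 229, 230.5 and 242 in EV_anta483. All 3 groups were apart, and the pooled difference was -0.25 (SE 0.03, adjusted p = 7.88e-07 by edgeR), with -0.12 and -0.39. Csf1, the growth factor of macrophages, read 40.3, 39.5 and 39.98 CPM in Veh, 36.5, 38.7 and 39.2 in EV_antaNC and 28.9, 24.2 and 24.7 in EV_anta483 (pooled -0.35, adjusted p = 0.000304 by edgeR). Its EV_antaNC libraries were below Veh by little, and the difference there was -0.09. Timp2, an inhibitor of matrix metalloproteinases, was at 391.7 ± 8.70 CPM in Veh, 371 ± 6.28 in EV_antaNC and 343 ± 12.7 in EV_anta483 (each n = 3, ± SD; pooled -0.14, adjusted p = 0.0037 by edgeR, and 0.0556 without Veh 1). It was the only one called lower with the same sign in both groups among 10 tested genes that have been reported as targets of miR-483-5p, and it was lower in EV_anta483, whose antagomir is directed at that microRNA, as well as in EV_antaNC.

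The lower genes include 4 of the contact of cells with vesicles. Of 37 tested genes of vesicle uptake and tetraspanins, 4 were called lower, beside 93 (0.804%) of all genes tested, and none was called higher. They were Anxa5, which binds phosphatidylserine, Cd63, a tetraspanin of late endosomes, Cavin1, a coat protein of caveolae, and Itgb3, an integrin subunit. The median over the list was -0.02. Anxa5 read 392.1, 375 and 385 CPM in Veh, 353, 369 and 359 in EV_antaNC and 363, 356 and 348 in EV_anta483. These libraries did not overlap (-0.11, adjusted p = 0.036 by edgeR), but the call held in only 2 of the 9 fits without 1 library. Cd63, at 464, 469 and 459 CPM in Veh, 471, 433 and 427 in EV_antaNC and 425, 408 and 411 in EV_anta483, did overlap through EV_antaNC 1 (-0.12, adjusted p = 0.0198 by edgeR). The log2 difference of Itgb3 was -0.09 in EV_antaNC and -0.37 in EV_anta483, and that of Cavin1 was -0.05 and -0.22. In both genes the vesicle groups differed and EV_antaNC overlapped Veh. The calls of Cd63 and Cavin1 were each lost without any one of 7 libraries (0.0513 to 0.178), and that of Itgb3 without Veh 2 or Veh 3 (0.0918 and 0.262).

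No gene was called with the same sign in both groups in the lists of cytosolic ribosomal proteins (34 tested), translation factors, lipoproteins, fatty acid synthesis, endoplasmic reticulum chaperones, heat shock, interferon response, immediate early genes, hepatocyte identity, glycolysis, hypoxia response, p53 targets, autophagy, proteasome, microRNA processing and RNA sensing. Of the p53 targets Mdm2, which degrades p53, came nearest, at 0.13 (adjusted p = 0.0612 by edgeR). In the integrated stress response 1 of 26 tested genes was called, the serine synthesis gene Psat1, lower at 1475 to 1659 CPM against 1684 to 1748 in Veh (-0.12, adjusted p = 0.0402 by edgeR), and its call was lost without any one of 6 libraries (0.053 to 0.277). Most of that list went the other way: 21 of the 26 were above 0. Their median was 0.03, with -0.05 in EV_antaNC and 0.10 in EV_anta483 over all 26. Among 20 inflammation genes Csf1 was the only one called.

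Base composition moved with the direction of change. The 56 higher genes had a median GC content of 43.6% in their longest transcript, the 93 lower genes 51.4% and all tested genes 49.6%. With the tested genes in 5 equal bins of GC content, from the lowest to the highest, the bins held 28, 12, 7, 4 and 5 of the higher genes and 11, 14, 22, 25 and 21 of the lower genes. Within a library, Spearman's rho between GC content and a gene's deviation from its mean was -0.269, -0.179 and -0.103 in EV_antaNC, -0.008, 0.094 and 0.225 in Veh and 0.082, 0.108 and 0.099 in EV_anta483, a description across genes, which are not independent. With the trend over GC content and length removed from each library, 162 genes were called, 47 higher and 102 lower with equal sign, and 110 of the 149 genes kept their call, 37 higher and 73 lower. The cell cycle and mitosis list still held 6 genes called higher. Of the genes named by rule, 10 were no longer called. These were Cox4i1, mt-Co2, Snrnp48, Braf, Hmgcs1, Gstm1, Cd63, Cavin1, Tmem120a and Dusp14. The part of base composition in the other differences was not tested.

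**Figure D5:**
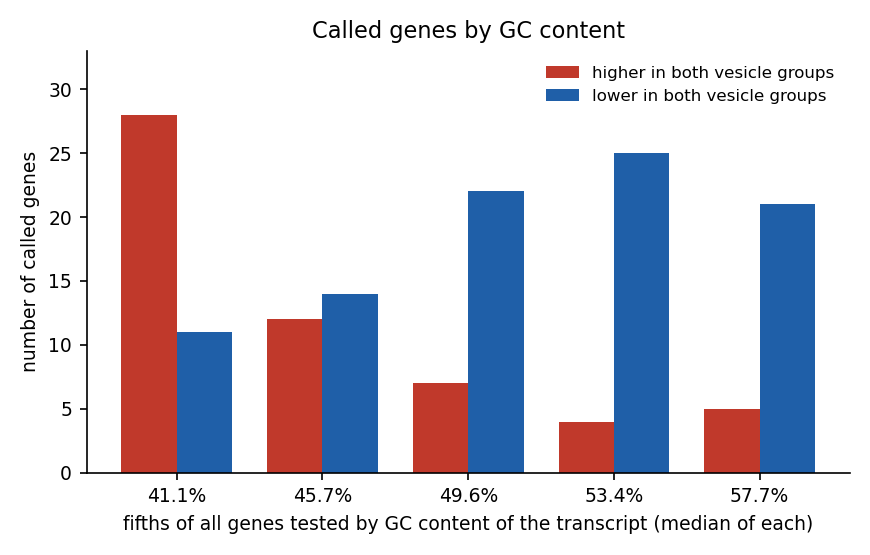
Number of the 56 higher and the 93 lower genes in each of 5 equal bins of the tested genes by GC content, from the lowest (median 41.1%) to the highest (median 57.7%). The lowest bin holds 28 of the higher genes and 11 of the lower ones, and the highest bin holds 5 and 21.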

How the data were processed

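For each of the 9 libraries the authors deposited whole-number counts per gene and FPKM, which scale fragments for transcript length and depth. Per the submitters' processing notes, HTSeq and build mm10 were used. Aligner, gene models and strandedness were not given in the sources used here. Counts were analysed as deposited with edgeR 4.0.16 in R 4.3.3. Genes were kept by filterByExpr (minimum count 10, minimum total 15), which held at least 99.9558% of each library's counts, scaled by TMM and fitted with glmQLFit (robust) over all 3 groups, and the contrasts were tested by the quasi-likelihood test with Benjamini-Hochberg adjustment over the 11562 genes. CPM were computed from the counts and the library totals, and 3 counts correspond to 0.138 to 0.173 CPM. GC content and opposite-strand overlap were taken from GENCODE M21, which 21851 of the 21959 gene IDs matched. The main edgeR fit was tried on simulated counts with equal changes planted in both vesicle groups. Most of the called changes were smaller than the planted ones. The other fits were not tried in this way.

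Each library was counted as 1 sample. Replicate libraries differed by more than counting noise (chi-square per gene 2.17 to 4.46), which does not show that they are separate cultures. No list was given a set test. The members and lists were chosen with earlier results of these data known. Genes were named by rule: among called genes of equal sign with at least 2 CPM and libraries that do not overlap, the 12 higher and the 12 lower whose smaller change over both groups was largest, up to 3 called genes of each of 43 lists, and up to 10 in each direction of those called in each group. Of these, 1 gene is not reported here. Other genes were chosen after their values were seen. Alternatives were DESeq2 1.42.0, limma 3.58.1 on log2(FPKM + 1) of the deposited FPKM, 2 other scalings, 2 other filters, the replicate number as a block, removal of a trend over GC content and length, the vesicle libraries as 1 group, and leaving out single libraries or those numbered 1. A fit with the robust option off was added after seeing the data. Figures were drawn with matplotlib 3.10.9 in Python 3.11.15.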

Additional observations from a re-analysis of the deposited data

Results flagged for a closer look

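For 19 of 54 named genes of the 149, the change against Veh differed in size between the vesicle groups by edgeR's quasi-likelihood test, although both groups had the same sign. Among all genes tested, whatever their signs, the vesicle groups differed in 1806 (15.6%). In 14 of the 19 the level was lower in EV_anta483 than in EV_antaNC. The largest of these 14 gaps on the log2 scale were those of Cp (-0.957, adjusted p = 1.08e-16), Csf1 (-0.527, 8.32e-07), Mgst1 (-0.334, 1.47e-06) and Lbp, which encodes a carrier of bacterial lipopolysaccharide (-0.311, 0.000125). Itgb3 was at -0.281 (0.00194), Igfbp4, a binding protein of insulin-like growth factors, at -0.176 (0.0013), Lrig1 at -0.187 (0.00341), Tmem176b at -0.185 (0.000181) and Cavin1 at -0.16 (0.00306). Among the others were Tshz2 (-0.199, 0.0247), whose transcript is covered to 67.5% by exons on the opposite strand, Gstm1 (-0.136, 0.0372) and Prdx6 (-0.111, 0.0297). Luc7l2 (-0.254, 0.000304) and Tra2a (-0.22, 0.000458) were higher than Veh, and more so in EV_antaNC. The other 5 were higher in EV_anta483 than in EV_antaNC, namely Fabp4 (0.496, 6.87e-08), Insig1 (0.294, 2.45e-06), Hmgcs1 (0.293, 2.62e-05), Gpr137b (0.161, 0.00277) and Smc4 (0.146, 0.00836).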

How the results depend on the processing

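The 163 called genes, the 56 higher and 93 lower ones of equal sign and the 19 called in each group became, in the same order, 306, 129, 139 and 45 with no filter on low counts, 24, 8, 14 and 2 by limma on log2(FPKM + 1), 394, 190, 178 and 33 without the 3 libraries numbered 1, and 86, 29, 50 and 6 with the robust option off. With the vesicle libraries fitted as 1 group, edgeR called 0, 0 and 0 genes in the first 3 counts (845 at an unadjusted p under 0.05). That fit counts the difference between the vesicle groups as spread. The 67 genes without a called difference between the vesicle groups lost their calls too, and the cause of the loss was not tested. With the trend over GC content and length removed, 12 genes were called in each group, and DESeq2 with the 3 groups kept apart, which called 144 genes (1116 at an unadjusted p under 0.05), also gave 12. The replicate number as a block gave 547, 221, 263 and 86 genes, or 540, 183, 296 and 76 together with the GC and length correction. The numbers do not pair the libraries by the labels: deviations of libraries with the same number correlated at 0.0236 to 0.23, over 0.1 in 4 of 9 pairs, and 6 of 9 libraries correlated best with their own number in both other groups. Leaving out 1 library gave 42 to 317 called genes, 10 to 131 higher, 26 to 149 lower and 1 to 30 called in each group, lowest without Veh 2 or Veh 3, while 1151 to 1768 genes differed between the vesicle groups. The cause of these movements was not tested. Of 55 named genes of the 149, 12 kept their pooled call without each single library, whatever the sign in each vesicle group. The fibroblast marker Col1a1, not called, went to 0.067 without the libraries numbered 1 (adjusted p = 0.95 by edgeR). At 17298814 to 21737643 counts per library the smallest called change was 1.07-fold, and whether smaller ones could be detected was not tested.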

Other observations

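Several gene groups had few called members, and in most of them the vesicle groups lay on opposite sides of Veh. Among all genes tested, 56 (0.484%) were called higher and 93 (0.804%) lower with equal sign. Of 25 tested genes of cholesterol synthesis and uptake, Hmgcs1 and Insig1 were called higher, and the median log2 difference was -0.07 in EV_antaNC and 0.19 in EV_anta483. Of 13 acute phase genes, Cp and Lbp were called lower, with medians of 0.05 and -0.22. The 27 genes of fatty acid uptake and lipid droplets held 1 called higher (Fabp4) and 2 lower (Pnpla2 and Plin2), and the 21 heterogeneous nuclear ribonucleoproteins held 1 higher (Hnrnpa1). Single lower genes were Timp2 among 32 of the TGF-beta and matrix list, Igfbp4 among 22 of insulin and IGF signalling, and Cp among 20 of iron handling. The 34 cytosolic ribosomal protein genes had no call, with medians of -0.09 and 0.03.

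Some called genes belong to none of these groups. Fgfr2, a fibroblast growth factor receptor, stood at 9.54 ± 0.777 CPM in Veh, 8.83 ± 0.721 in EV_antaNC and 4.99 ± 0.192 in EV_anta483 (each n = 3, ± SD; pooled -0.53, adjusted p = 0.00395 by edgeR). Gja1, the gap junction protein connexin, was at 42.3 ± 2.96, 43.3 ± 2.37 and 67.0 ± 1.42 CPM in the same order (0.34, adjusted p = 9.42e-05 by edgeR), and Havcr2, an immune checkpoint receptor, at 18.1 ± 0.730, 20.3 ± 1.05 and 30.9 ± 1.81 (0.46, adjusted p = 6.61e-05 by edgeR). The leukocyte marker Ptprc had at most 5 counts in any library. Sppl2b, an intramembrane protease, was lower in both groups, at 7.59 ± 0.628, 5.66 ± 0.356 and 5.17 ± 0.687 CPM (-0.49, adjusted p = 0.0246 by edgeR), but lost its call without any one of 5 libraries (0.0546 to 0.157).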
